A study of Glycine max with 24 samples.

Results

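STOP1, FRD3a and SALI5-4A are soybean (Glycine max) genes whose names link them to aluminium (Al) tolerance, citrate transport and induction by Al. They were chosen by name: every probe set that the probe-to-gene table pairs with 1 of these symbols and with no other gene was taken. This gave 3 of the 6029 genes paired singly with a probe set, and 5 of 8677 such probe sets. STOP1 (gene ID 100170687) and FRD3a (gene ID 100301900) have 1 probe set each. SALI5-4A (gene ID 547882) has 3, which are separate sets of short oligonucleotides for the same gene and are numbered here from the brightest to the dimmest. The genome build behind the array is not given in the sources used here, so no coordinates are printed.

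Al is soluble in acid soil, where it binds to growing root tips and stops their elongation. Many plants respond by releasing organic acids such as citrate or malate, which bind Al outside the cell and keep it from the root. In Arabidopsis the zinc finger transcription factor STOP1 is needed for growth in Al and in acid, and it controls genes of malate and citrate efflux as well as PGIP genes, whose products inhibit pectin-degrading enzymes. FRD3 of Arabidopsis belongs to the MATE family of transporters and releases citrate into the xylem, where citrate carries iron. SALI5-4A was named as a transcript induced by Al in soybean roots.

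RNA came from the last 1 cm of roots of seedlings grown hydroponically, and was hybridised to 24 Affymetrix soybean arrays. The series compares added magnesium (Mg) with Al alone, in 2 genotypes and after 2 treatment times, to address how Mg lessens Al toxicity. The 8 groups, with 3 arrays each, were PI 416937 (PI below) with Al plus Mg for 72 h, PI with Al alone for 72 h, Young with Al plus Mg for 72 h, Young with Al alone for 72 h, and the same 4 after 12 h. All 8 groups received Al, with 10 µM stated as its concentration and no concentration stated for Mg, so no comparison here shows what Al itself does. The labels call PI 416937 Al-sensitive and Young Al-tolerant, which is the reverse of how these genotypes are usually described in soybean work. Array titles carry a final c wherever Al was given alone, which no label explains. Because nothing states whether replicates are separate plants, pools or experiments, a p-value reflects the spread among arrays, which may be technical.

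Values are log2 of the deposited intensity. All 6 root genes checked, among them PRP1, PRP2 and the phosphate transporters PHT1-3 and PHT1-8, were above background on all 24 arrays, where background means the 99th percentile of probe sets for other organisms on the same array (2.72 to 3.10). Of 5 shoot or leaf genes, 3 were also above it on every array (CAB3, RCA11 and RCABETA). Of 12 seed genes, 4 were above it on every array and 7 on none, the glycinin genes GY1 and GY5 among these. Between 77.8% and 81.4% of the soybean probe sets on an array were above background. One array stands apart in the comparisons at 12 h. Replicate 3 of Young with Al alone lay at a root mean square distance of 0.297 (log2) from the mean of Young with Al plus Mg, against 0.615 for replicate 1 and 0.569 for replicate 2. Results that use this group are given with and without that array where it changes the call. The array was singled out from these same values, for its nearness to the arrays with Mg. Leaving it out therefore tends to widen Mg differences in Young at 12 h, so passes without it are not separate evidence. In whole root tips, fewer cells of a type and less RNA per cell cannot be told apart.

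Among the 3 genes, 1 Mg difference passed the test with all arrays: FRD3a was lower with Mg in Young at 72 h, by a factor of 1.66. At 72 h FRD3a in PI and SALI5-4A probe set 1 in both genotypes also had the lower mean with Mg, but did not pass. SALI5-4A probe sets 2 and 3 did not have the lower mean with Mg at that time. The FRD3a response at 72 h was not shown to differ between the genotypes. By the count of member probe sets that passed, the genotypes differed in most of them with Al plus Mg at 12 h. There the arrays of all 5 probe sets, 3 of which measure SALI5-4A, lay lower in PI than in Young without overlap, as did those of 14.6% of all soybean probe sets (32.4% in either direction). Of the 5, 3 passed as lower in PI, beside 13.6% of all probe sets that passed and 7.54% that passed as lower in PI. With each array left out in turn, the STOP1 call was lost in 2 of 6 fits. Those of FRD3a and SALI5-4A probe set 3 were each lost in 5 of 6. Within Young with Al plus Mg, all 5 probe sets had a lower mean at 72 h than at 12 h, and 3 passed, beside 31.1% of all probe sets that passed and 15.6% that were lower at 72 h. The FRD3a call was lost in 4 of 6 fits that leave out an array. That of SALI5-4A probe set 1 was lost in 5 of 6, and that of its probe set 3 held in all 6. Each test came from 1 limma model over the 24 arrays, with Benjamini-Hochberg adjustment over 37593 soybean probe sets and a threshold of 0.05. Several comparisons share a group, so they are not independent of each other.

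STOP1 had the narrowest range of the 3 genes. Its lowest, median and highest values over the 24 arrays were 10.22, 10.54 and 10.93, and its 8 group means spanned 0.54. The median span over the 33161 probe sets above a filter on dim signal was 0.98, and 20.1% of these probe sets had a smaller span than STOP1.

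At 72 h the PI arrays with Al plus Mg read 10.64, 10.32 and 10.35 for STOP1 (10.44 ± 0.18, mean ± SD, n = 3 here and below), against 10.37, 10.32 and 10.22 with Al alone (10.30 ± 0.08). In Young at 72 h the arrays with Al plus Mg read 10.57, 10.65 and 10.56 (10.59 ± 0.04), against 10.51, 10.72 and 10.70 with Al alone (10.64 ± 0.12). The treatments overlap in both genotypes at this time. The PI arrays with Al alone all lie under those of Young with Al alone.

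After 12 h the PI arrays with Al plus Mg read 10.28, 10.43 and 10.46 (10.39 ± 0.10), against 10.56, 10.59 and 10.47 with Al alone (10.54 ± 0.06). In Young after 12 h STOP1 read 10.93, 10.79 and 10.79 with Al plus Mg (10.84 ± 0.08), against 10.42, 10.28 and 10.78 with Al alone (10.49 ± 0.26). In PI all 3 arrays with Al plus Mg lie under those with Al alone. In Young they all lie above, but replicate 3 with Al alone, at 10.78, is almost level with the lowest array with Al plus Mg, at 10.79. In the order of the 8 means, Young with Al plus Mg at 12 h came first and lay 0.19 above Young with Al alone at 72 h, with no overlap. The 6 gaps that follow were each smaller than the larger SD of the 2 groups.

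**Figure D1:**
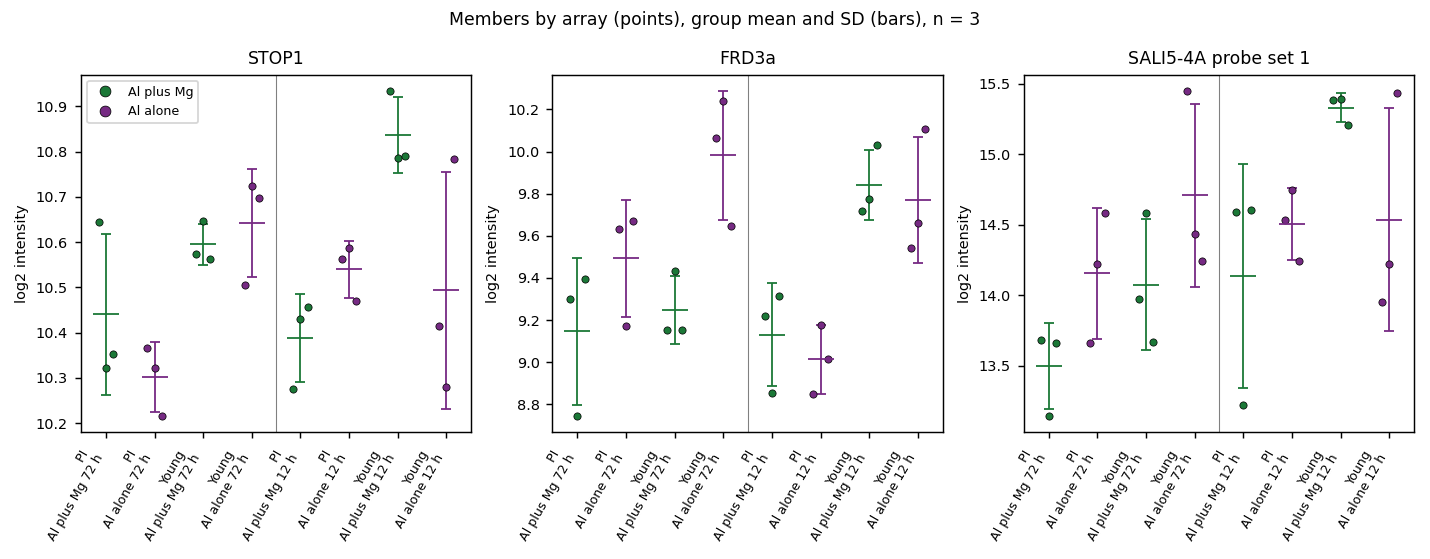
Log2 intensity (vertical axis) of STOP1, FRD3a and the brightest SALI5-4A probe set on each of the 24 arrays (points), by group, with bars for the group mean and SD (n = 3). STOP1 and SALI5-4A were highest in Young with Al plus Mg at 12 h, at 10.84 and 15.33, and FRD3a was highest in Young with Al alone at 72 h, at 9.98.

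The genotypes differed in STOP1 in 2 of the 4 conditions. With Al plus Mg at 12 h it was lower in PI by 0.45 (log2 difference −0.45 ± 0.11 SE, adjusted p = 0.0111), or 1.37-fold. The call was lost without PI replicate 1 (adjusted p = 0.0508) and without Young replicate 1 (adjusted p = 0.0577). With Al alone at 72 h it was lower in PI by 0.34 (−0.34 ± 0.11, adjusted p = 0.0457), or 1.27-fold, and 12.6% of all probe sets passed in that comparison. This call lay close to the threshold: it held without Young replicate 1 (adjusted p = 0.0349) and was lost without any other of the 6 arrays, with an adjusted p of up to 0.165. With Al plus Mg at 72 h the difference was −0.15 (95% interval −0.38 to 0.07, adjusted p = 0.430), beside 9.83% of all probe sets that passed. With Al alone at 12 h it was 0.05 (interval −0.18 to 0.27, adjusted p = 0.961), beside 4.21%.

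No Mg difference in STOP1 passed with all arrays. At 72 h the Mg difference was 0.14 in PI (interval −0.09 to 0.36) and −0.05 in Young (interval −0.27 to 0.18), where 33.7% and 39.3% of all probe sets passed. At 12 h it was −0.15 in PI (interval −0.38 to 0.07, adjusted p = 1) and 0.34 ± 0.11 in Young (interval 0.12 to 0.57, adjusted p = 0.153). Only 0.0293% of all probe sets, or 11, passed in PI at 12 h, and the same number in Young, although 1412 in PI and 6396 in Young had an unadjusted p under 0.05. Without replicate 3 of Young with Al alone, the Mg difference of STOP1 in Young at 12 h was 0.49 ± 0.09 and passed (adjusted p = 0.00712), as did 8.29% of all probe sets. The difference between the genotypes in the Mg response at 12 h, PI minus Young, was −0.50 (adjusted p = 0.128) with all arrays and −0.64 (adjusted p = 0.00869) without that array. With all arrays 5 probe sets, or 0.0133%, passed in this interaction and 6236 had an unadjusted p under 0.05. Without the array 6.95% passed. Because the array was picked for its nearness to the arrays with Mg, the values without it are descriptions.

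No time difference in STOP1 passed. It was 0.05 in PI with Al plus Mg (adjusted p = 0.742), −0.24 in PI with Al alone (adjusted p = 0.0899), −0.24 in Young with Al plus Mg (adjusted p = 0.0995) and 0.15 in Young with Al alone (adjusted p = 0.276). The shares of all probe sets that passed were 44.1%, 39.2%, 31.1% and 49.7% in the same order. In the 2 comparisons with −0.24 the arrays at 72 h all lay under those at 12 h. Without the replicate 3 named above, the time difference in Young with Al alone was 0.29 (adjusted p = 0.0144).

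FRD3a, the homologue by name of the Arabidopsis citrate transporter, was at a moderate level on every array, with 8.75, 9.41 and 10.24 as its lowest, median and highest values. Its group means spanned 0.97, close to the median over probe sets. At 72 h the PI arrays with Al plus Mg read 9.30, 8.75 and 9.40 (9.15 ± 0.35), against 9.63, 9.17 and 9.67 with Al alone (9.49 ± 0.28). In Young at 72 h the arrays with Al plus Mg read 9.16, 9.43 and 9.16 (9.25 ± 0.16), against 10.06, 10.24 and 9.65 with Al alone (9.98 ± 0.31). The treatments overlap in PI and lie apart in Young.

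After 12 h FRD3a read 9.22, 8.86 and 9.32 in PI with Al plus Mg (9.13 ± 0.24), against 8.85, 9.18 and 9.02 with Al alone (9.01 ± 0.16). In Young after 12 h it read 9.72, 9.77 and 10.03 with Al plus Mg (9.84 ± 0.17), against 9.54, 9.66 and 10.11 with Al alone (9.77 ± 0.30). At this time the treatments overlap within each genotype, while every PI array lies under every Young array of the same treatment. The means ran from Young with Al alone at 72 h down to PI with Al alone at 12 h, and none of the 7 neighbouring pairs differed by more than the larger SD of the 2 groups.

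In Young at 72 h FRD3a fell with Mg by 0.74 (−0.74 ± 0.20, adjusted p = 0.00748), or 1.66-fold. This call held in all 14 alternatives tried, leaving out each array in turn included, with adjusted p between 0.00322 and 0.0460. It stands beside 39.3% of all probe sets that passed in the same comparison. In PI at 72 h the difference was −0.35 ± 0.20 (interval −0.77 to 0.08, adjusted p = 0.209). The difference between these 2 Mg responses, PI minus Young, was 0.39 (interval −0.21 to 0.99, adjusted p = 0.594), so a genotype difference in the response was not shown, and 1.45% of all probe sets passed in that interaction. At 12 h the Mg difference in FRD3a did not pass in either genotype, with 0.07 in Young (adjusted p = 0.954) and 0.12 in PI (adjusted p = 1).

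In Young the Mg response of FRD3a differed between the times. The difference, 72 h minus 12 h, was −0.81 ± 0.29 (interval −1.41 to −0.20, adjusted p = 0.0362), beside 35.2% of all probe sets. It was called in 12 of 20 alternatives, and in 5 of the 12 that leave out an array, where the adjusted p ran between 0.0130 and 0.102. In PI the same difference was −0.46 (adjusted p = 0.303), beside 17.3% of all probe sets.

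A measure of RNA ends on the arrays moved with treatment at 72 h. The log2 ratio of the 3′ to the 5′ probe sets of a cytochrome P450 control was 3.80 ± 0.16 in Young with Al plus Mg and 2.26 ± 0.37 in Young with Al alone at 72 h. It was 4.12 ± 0.25 in PI with Al plus Mg and 2.51 ± 0.36 in PI with Al alone at that time. In the 4 groups at 12 h its mean lay between 2.82 and 3.09. The actin ratio in Young at 72 h was 8.41 ± 0.04 with Al plus Mg and 7.88 ± 0.20 with Al alone. In PI at 72 h it was 8.41 ± 0.17 with Al plus Mg and 7.99 ± 0.03 with Al alone. Its means in the 4 groups at 12 h lay between 7.97 and 8.12. The part of these ratios in the results at 72 h was not tested.

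FRD3a was lower in PI than in Young at 12 h under both treatments. With Al plus Mg the difference was −0.71 ± 0.20 (adjusted p = 0.0279), or 1.64-fold, and with Al alone −0.76 ± 0.20 (adjusted p = 0.0420), or 1.69-fold. Most or all fits that leave out an array lost these calls, while the differences stayed negative (−0.80 to −0.57 and −0.87 to −0.59). The first held in 1 of 6 such fits, the one without PI replicate 3, with adjusted p between 0.0310 and 0.137. The second held in none of 6, with adjusted p between 0.0502 and 0.150. Without replicate 3 of Young with Al alone the second was −0.59 (adjusted p = 0.132). At 72 h the genotype difference was −0.10 with Al plus Mg (interval −0.53 to 0.33, adjusted p = 0.852) and −0.49 ± 0.20 with Al alone (interval −0.92 to −0.06, adjusted p = 0.132).

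Over time FRD3a fell in Young with Al plus Mg, with a difference between 72 h and 12 h of −0.59 ± 0.20 (adjusted p = 0.0332), or 1.51-fold. Without 12 h replicate 2 or 3, or 72 h replicate 1 or 3, this call was lost, with an adjusted p of up to 0.126. The difference was 0.48 ± 0.20 in PI with Al alone (adjusted p = 0.0707), which passed without PI replicate 2 at 72 h (0.64, adjusted p = 0.0293). It was 0.02 in PI with Al plus Mg (adjusted p = 0.965) and 0.21 in Young with Al alone (adjusted p = 0.426).

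**Figure D2:**
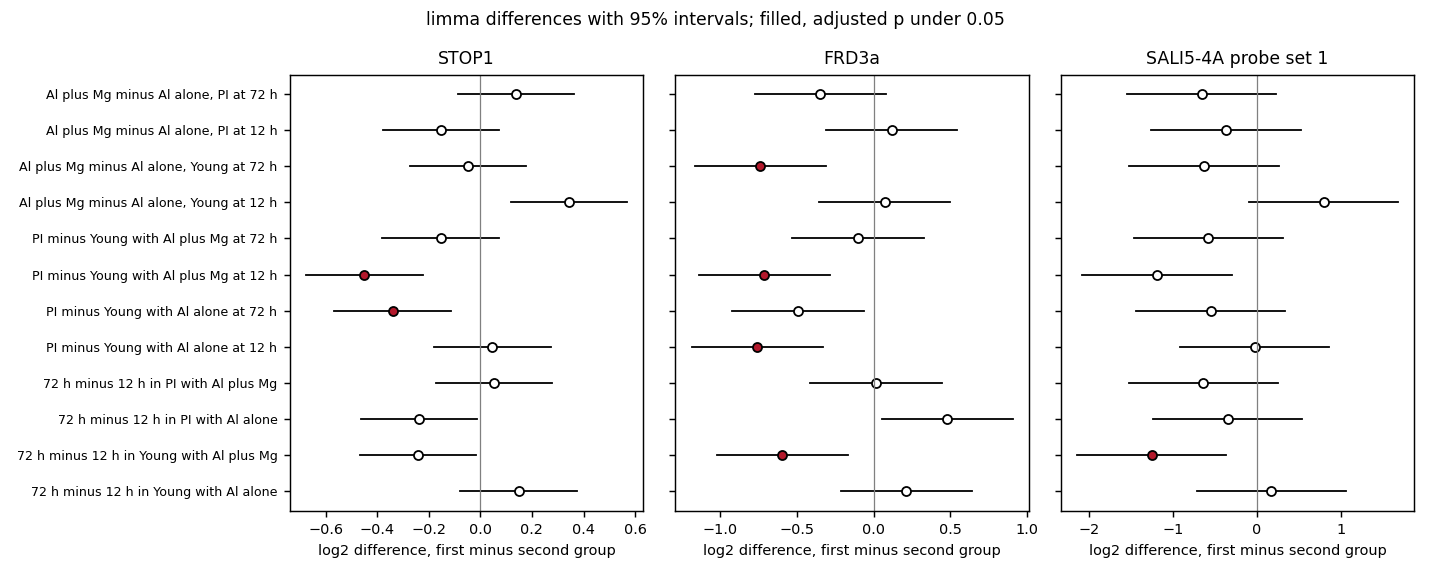
Log2 difference with its 95% interval (horizontal axis) for STOP1, FRD3a and the brightest SALI5-4A probe set in the 12 comparisons of 2 groups, with filled points where the adjusted p was under 0.05. The FRD3a point for Mg in Young at 72 h lies at −0.74, and all 3 genes lie left of 0 for PI against Young with Al plus Mg at 12 h.

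SALI5-4A was the brightest of the 3 by its probe set 1, whose lowest, median and highest values were 13.15, 14.34 and 15.45. Probe set 2 had a median of 4.35 and was above background on 22 of 24 arrays, and probe set 3 had a median of 3.00 and was above it on 15. Levels of different probe sets are not comparable as amounts of RNA. Over the 24 arrays probe set 1 correlated with probe set 2 at Pearson r = 0.80 and with probe set 3 at r = 0.75, and probe sets 2 and 3 correlated at r = 0.61. These arrays share groups and normalization, and the values describe them only. The span of the group means was 1.83, 2.40 and 2.13 for probe sets 1, 2 and 3, larger than in 81.4%, 88.7% and 85.8% of the probe sets above the dim-signal filter. The spread within groups was large too: the residual SD of probe set 1 was 0.516, against a median of 0.197 over all.

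At 72 h probe set 1 read 13.68, 13.15 and 13.66 in PI with Al plus Mg (13.50 ± 0.30), against 13.66, 14.22 and 14.58 with Al alone (14.16 ± 0.46). In Young at 72 h it read 13.98, 14.58 and 13.67 with Al plus Mg (14.08 ± 0.47), against 15.45, 14.43 and 14.24 with Al alone (14.71 ± 0.65). Both genotypes had the lower mean with Mg, and in both the arrays overlap.

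After 12 h probe set 1 read 14.59, 13.22 and 14.60 in PI with Al plus Mg (14.14 ± 0.79), against 14.53, 14.75 and 14.24 with Al alone (14.51 ± 0.25). In Young after 12 h it read 15.38, 15.39 and 15.21 with Al plus Mg (15.33 ± 0.10), against 13.95, 14.22 and 15.43 with Al alone (14.54 ± 0.79). Young with Al plus Mg was the highest of the 8 groups and PI with Al plus Mg at 72 h the lowest. In Young with Al alone at 12 h, replicate 3 reached the level of the arrays with Mg while replicates 1 and 2 did not.

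Probe sets 2 and 3 were brightest in the same group. Probe set 2 read 5.61, 6.68 and 6.04 in Young with Al plus Mg at 12 h, against 4.41, 4.62 and 5.21 with Al alone. In PI at 12 h it read 5.35, 2.87 and 4.37 with Al plus Mg, against 4.20, 4.41 and 3.58 with Al alone. Its highest reading outside Young with Al plus Mg at 12 h was 6.56, in replicate 1 of Young with Al alone at 72 h, whose other replicates read 3.35 and 4.12.

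Probe set 3 read 4.93, 4.77 and 4.98 in Young with Al plus Mg at 12 h, against 2.97, 3.04 and 4.87 with Al alone. In PI at 12 h it read 3.85, 2.87 and 4.07 with Al plus Mg, against 3.05, 4.54 and 3.65 with Al alone. Replicate 3 of Young with Al alone again lay near the arrays with Mg. At 72 h the highest reading of probe set 3 was 3.23. At that time 0 of 3 arrays were above background in PI with Al plus Mg, 1 in PI with Al alone, 2 in Young with Al plus Mg and 1 in Young with Al alone, so no fold is given between these groups.

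**Figure D3:**
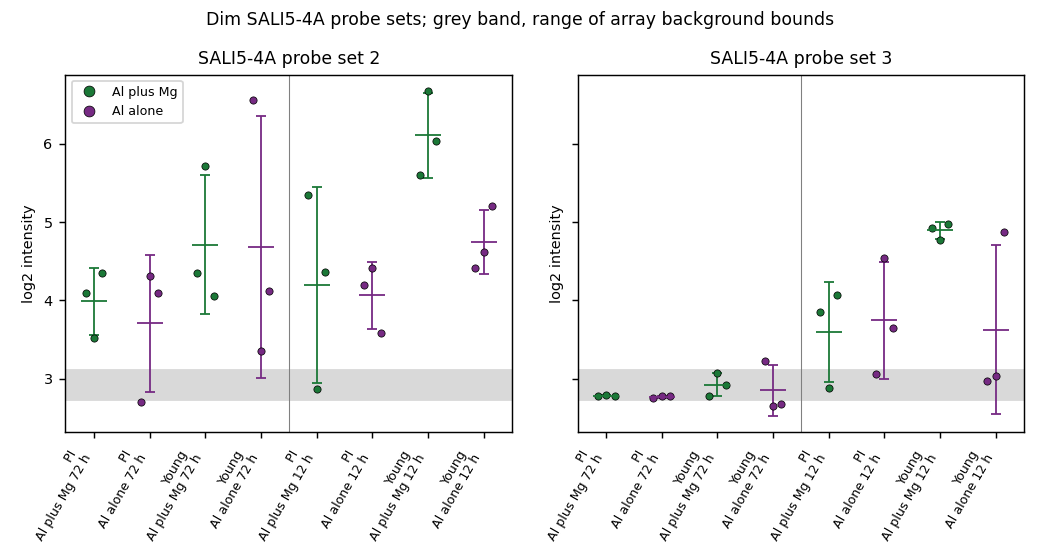
Log2 intensity (vertical axis) of SALI5-4A probe sets 2 and 3 on each of the 24 arrays (points), by group, with bars for the group mean and SD and the range of the array background bounds (2.72 to 3.10) shaded. Both were highest in Young with Al plus Mg at 12 h, and probe set 3 lay near background in the 4 groups at 72 h.

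Time in Young with Al plus Mg gave the only SALI5-4A difference that passed with 2 probe sets. Probe set 1 fell by 1.25 at 72 h against 12 h (−1.25 ± 0.42, adjusted p = 0.0310), or 2.38-fold. Probe set 3 fell by 1.97 (−1.97 ± 0.42, adjusted p = 0.00174), with −1.96 when arrays at background were set at their bound. Probe set 2 differed by −1.40 (adjusted p = 0.163), with the same sign. The call for probe set 1 held in 1 of 6 fits that leave out an array, the one without 72 h replicate 2, with adjusted p between 0.0238 and 0.119. That for probe set 3 held in all 6. In the other 3 time comparisons probe set 1 differed by −0.64 in PI with Al plus Mg (adjusted p = 0.239), −0.35 in PI with Al alone (adjusted p = 0.592) and 0.17 in Young with Al alone (adjusted p = 0.800). The first of these was −1.10 and passed without PI replicate 2 at 12 h (adjusted p = 0.0453).

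Between the genotypes, SALI5-4A had the lower mean in PI with Al plus Mg at 12 h by all 3 probe sets, and 1 of them passed. Probe set 1 differed by −1.19 ± 0.42 (interval −2.08 to −0.30, adjusted p = 0.0698), and probe set 2 by −1.91 ± 0.72 (adjusted p = 0.0906), so neither passed. Probe set 3 passed, with −1.30 ± 0.42 (adjusted p = 0.0496), or −1.28 where arrays at background were set at their bound. Its call held in 6 of 14 alternatives, and in 1 of the 6 that leave out an array. The 3 probe sets measure 1 gene on the same arrays and are not separate evidence. With Al plus Mg at 72 h, probe set 1 differed by −0.58 (adjusted p = 0.458), with Al alone at 72 h by −0.55 (adjusted p = 0.480), and with Al alone at 12 h by −0.03 (interval −0.92 to 0.86, adjusted p = 1).

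No Mg difference of SALI5-4A passed with all arrays. With 72 h of treatment probe set 1 differed by −0.66 ± 0.42 in PI (interval −1.55 to 0.23, adjusted p = 0.255) and by −0.63 ± 0.42 in Young (interval −1.52 to 0.26, adjusted p = 0.267). Probe set 2 did not have the lower mean with Mg at 72 h. It averaged 3.98 ± 0.43 with Al plus Mg and 3.70 ± 0.87 with Al alone in PI, and 4.71 ± 0.89 with Al plus Mg and 4.68 ± 1.67 with Al alone in Young, with arrays that overlap. At 12 h probe set 1 differed by −0.37 in PI (adjusted p = 1) and by 0.79 ± 0.42 in Young (interval −0.10 to 1.68, adjusted p = 0.346). Probe sets 2 and 3 differed in Young at 12 h by 1.36 ± 0.72 (adjusted p = 0.346) and 1.27 ± 0.42 (adjusted p = 0.164). Without replicate 3 of Young with Al alone these differences were 1.24 ± 0.42 for probe set 1 (adjusted p = 0.0745), 1.59 for probe set 2 (adjusted p = 0.240) and 1.89 ± 0.34 for probe set 3 (adjusted p = 0.00550). The probe set 1 difference between the Mg responses at 72 h and 12 h in Young was −1.42 (adjusted p = 0.0743) with all arrays and −1.87 (adjusted p = 0.0143) without that array. For probe set 3 it was −1.20 (adjusted p = 0.133) with all arrays and −1.82 (adjusted p = 0.00471) without it, and 37.9% of all probe sets passed without it. The difference between the genotypes in the Mg response of probe set 3 at 12 h, PI minus Young, was −1.42 (adjusted p = 0.241) with all arrays and −2.04 (adjusted p = 0.0164) without that array. Some arrays of probe set 3 in these interactions were at background. The comparison between the times in Young gave −0.39 (adjusted p = 0.0541) for STOP1 with all arrays and −0.54 (adjusted p = 0.00291) without it.

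For each gene the 4 named genes of most similar pattern were taken from 918 others, each by its brightest probe set, by Pearson correlation over the 24 arrays. For STOP1 these were WNK13 (r = 0.83), a member of the WNK kinase family, PHR25 (r = 0.81), PIP2-2, an aquaporin (r = 0.77), and BZIP42 (r = 0.75). For FRD3a they were PTS-L4 (r = 0.79), BZIP90 (r = 0.77), MYB145 (r = 0.77) and EREBP1 (r = 0.76), the last 3 named as transcription factors. For SALI5-4A by probe set 1 they were MYB139 (r = 0.87), PHR20 (r = 0.82), SWEET28 of the sugar transporter family (r = 0.81) and NARK, the receptor kinase that limits nodule number (r = 0.81). Over the 8 group means the 12 values of r lay between 0.80 and 0.95. The genes are the highest of many and all share arrays, so these are descriptions with no test.

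Other genes of Al tolerance on the list used here were the 2 pectin-side genes PGIP and PGIP4. PGIP4 was below background on every array at 12 h. At 72 h PGIP4 read 5.27, 4.998 and 4.38 in PI with Al plus Mg, against 8.22, 7.79 and 7.43 with Al alone. It read 5.38, 4.67 and 4.74 in Young with Al plus Mg, against 5.98, 7.01 and 6.10 with Al alone. PGIP4 fell with Mg by 2.93 in PI (−2.93 ± 0.26, adjusted p = 2.49e-07) and by 1.43 in Young (−1.43 ± 0.26, adjusted p = 2.83e-04). The PI response did not pass as different from that of Young (−1.50 ± 0.37, adjusted p = 0.0541), beside 1.45% of all probe sets. The PGIP4 level at 72 h was at least 32.5-fold higher than at 12 h in PI with Al alone and at least 11.1-fold higher in Young with Al alone, taking each array at 12 h at its background bound. With Al plus Mg the level was also higher at 72 h, by the same bound at least 4.05-fold in PI and at least 4.44-fold in Young. PGIP differed with Mg by −0.93 ± 0.27 in PI (adjusted p = 0.0133) and was also lower in Young, by −1.11 ± 0.27 (adjusted p = 0.00315). The PI call for PGIP was lost without replicate 1 of PI with Al alone (−0.80, adjusted p = 0.0605). The RNA of STOP1 did not pass for Mg at 72 h in either genotype, and its protein was not measured. Whether STOP1 has a part in the PGIP differences was not tested.

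The second list, of 14 genes, held enzymes that make or use organic acids and the phosphoenolpyruvate carboxylase kinases PPCK1 to PPCK4. At 72 h 7 of the 14 were higher with Mg and 1 was lower in each genotype, with a median log2 difference of 0.45 in both, beside 0.06 in PI and 0.03 in Young over all probe sets. Of all probe sets, 20.7% were higher and 13% lower in PI, and 23.1% were higher and 16.3% lower in Young. In both genotypes the higher genes included IDH1, named for isocitrate dehydrogenase, which rose by 0.50 ± 0.09 in PI (adjusted p = 4.19e-04) and similarly in Young, by 0.51 ± 0.09 (adjusted p = 2.43e-04). They also included the phosphoenolpyruvate carboxylase genes PEPC7, PEPC16, PEPC17 and PPC1 and the kinase gene PPCK3. PPC1 rose by 0.91 ± 0.33 in PI (adjusted p = 0.0415), and its rise in Young was 1.43 ± 0.33 (adjusted p = 0.00210). The probe sets of PEPC7 and PPC1 share a sequence cluster name and may not be independent. The malate dehydrogenase gene MDH-1 rose in Young, by 0.68 (adjusted p = 0.0140), and PPCK2 in PI, by 0.79 (adjusted p = 8.77e-04). The lower gene in both was MS, named for malate synthase. In PI with Al plus Mg MS was not above background on any array, while with Al alone it read 5.15, 3.27 and 7.96. Its difference was −2.75 ± 0.995 (adjusted p = 0.0412). In Young with Al plus Mg MS was above background on 1 of 3 arrays, while with Al alone it read 7.20, 3.67 and 5.44. Its difference there was −2.66 ± 0.995 (adjusted p = 0.0423). With arrays at background taken at their bound, the means differed 5.38-fold in PI and 5.87-fold in Young. The arrays with Al alone are widely scattered, so these folds are not lower limits.

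The count of 7 higher genes in PI was 3 without replicate 1 and 4 without replicate 3 of PI with Al alone. With the compared arrays alone it was 4, and the Young count was 4 as well. The count of 1 lower gene was 0 without any of 5 of the 6 arrays in each genotype. It was also 0 in both genotypes with an offset of 32 before log2 and with the compared arrays alone. In Young it was 0 as well under quantile normalization and when every probe set except controls was tested. At 12 h 0 of the 14 genes passed for Mg in either genotype by limma, and 3 in PI and 2 in Young had an unadjusted p under 0.05. Between 72 h and 12 h in Young with Al alone, 2 of 14 were higher and 7 lower, with a median of −0.35, beside 20.7% higher and 29% lower over all probe sets. In PI with Al alone 1 was higher, PPCK1 by 2.72 (adjusted p = 8.49e-05), and 4 were lower, with a median of −0.37. Over all probe sets 15.7% were higher and 23.5% lower there. PPCK1 also passed as higher at 72 h in Young with Al alone, by 2.42. With Al plus Mg it passed as higher by 4.47 in PI and by 1.52 in Young. Over the same time with Al plus Mg, 4 of 14 were higher and 1 lower in Young, with a median of 0.13. In PI 2 were higher and 1 lower, with a median of −0.07. Of all probe sets, 31.1% passed in Young and 44.1% in PI with Al plus Mg.

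**Figure D4:**
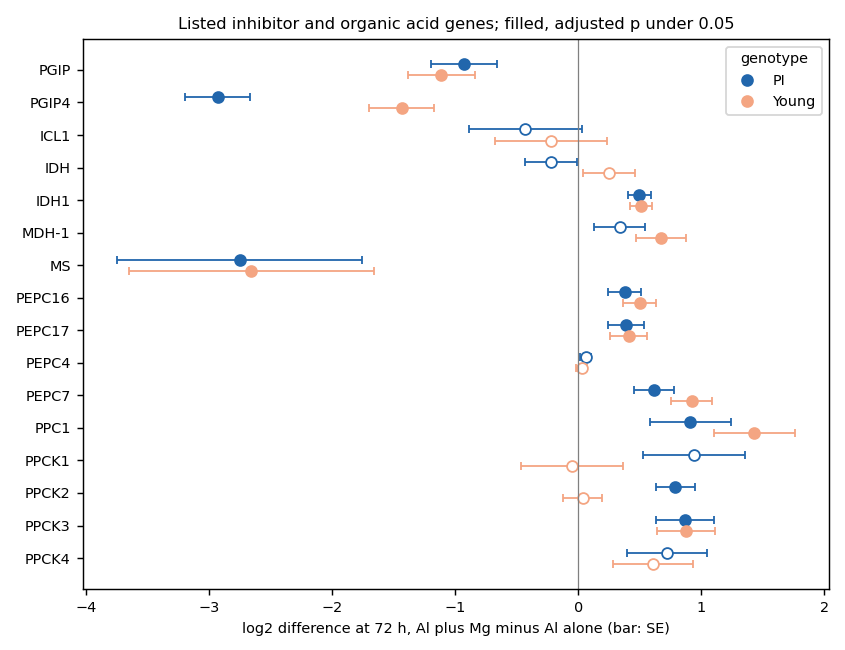
Log2 difference of Al plus Mg minus Al alone at 72 h with its standard error (horizontal axis) for PGIP, PGIP4 and the 14 genes of the organic acid list, kinases included, in PI and in Young, with filled points where the adjusted p was under 0.05. PGIP4 lies furthest to the left among genes above background in PI, at −2.93, and 7 genes of that list in each genotype lie to the right of 0 with filled points.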

How the data were processed

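Per the labels' protocols, biotin-labelled RNA made from an oligo-dT primer was hybridised to Affymetrix soybean arrays. The authors deposited 1 linear intensity per probe set and array. How these were background-corrected, summarised over probes and normalized is not given in the sources used here. Deposited values were set to at least 1 and log2-transformed, with no further scaling, and array medians lay between 7.49 and 7.65.

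Tests used limma 3.58.1 in R 4.3.3, with a mean for each of 8 groups, 16 residual degrees of freedom, 12 comparisons of 2 groups and 4 interactions. P-values were adjusted by Benjamini-Hochberg within a comparison over 37593 soybean probe sets. The 23350 probe sets for other organisms served as background, and the dim-signal filter was the 95th percentile of their means, 2.39. All 5 member probe sets passed it. The labels give no meaning to shared replicate numbers. Same-numbered arrays deviated together in 1 of 12 comparisons, 72 h against 12 h in Young with Al plus Mg, where every correlation of deviations passed 0.1 (0.15 to 0.25). Replicate arrays correlated at 0.98 to 0.99 and none were identical. The number of arrays limits the precision.

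Gene names came from GEO's platform annotation and RefSeq's gene table of Glycine_max_v4.0. Members and lists were chosen with earlier results of these data known. The text names every probe set of the 3 genes, listed genes that passed, and the 4 named genes most correlated with each member. AHAS3 and LBD23 matched list patterns as other proteins and were left out.

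Alternatives tried were quantile normalization, equal array medians, an offset of 32, the dim-signal filter, testing every probe set except controls, a trended robust variance, a replicate block, the compared arrays alone and each array left out. Setting arrays at background to their bound was added after seeing the data. On simulated data for Mg in Young at 72 h, log2 changes of 0.5, 1 and 2 were planted in 67, 67 and 66 of 37593 probe sets. Of these, 37.3%, 70.1% and 90.9% were recovered. The other probe sets held no change, whereas 39.3% passed in the real comparison. The adjustment therefore differs, and these shares do not carry over to the data.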

Additional observations from a re-analysis of the deposited data

Results flagged for a closer look

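The Mg response of FRD3a in Young differed between the 2 times by a test of the difference itself: it was −0.74 at 72 h and 0.07 at 12 h, a difference of −0.81 (adjusted p = 0.0362, limma). All 3 arrays with Al plus Mg lay under all 3 with Al alone at 72 h, and the arrays overlapped at 12 h. In the same test 35.2% of all probe sets passed. The FRD3a call was lost in 7 of 12 fits that leave out an array, with adjusted p between 0.0130, without replicate 3 of Young with Al alone at 12 h, and 0.102, and it was lost over all probe sets (adjusted p = 0.0623). Groups of 3 arrays were too small for a test of single outlying arrays.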

How the results depend on the processing

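Of 10 member results that passed, the number kept was 10 under quantile normalization, equal array medians, trended robust variance and the offset, 9 under the filter, 7 with the replicate block, 5 with the compared arrays alone and 4 over all probe sets. Their direction held in all of these. With the compared arrays alone, the PI minus Young differences at 12 h with Al plus Mg no longer passed (STOP1 −0.45, FRD3a −0.71), nor did STOP1 with Al alone at 72 h (−0.34) and FRD3a with Al alone at 12 h (−0.76), while the STOP1 time differences in PI with Al alone and in Young with Al plus Mg (both −0.24) now passed. The STOP1 difference of −0.34 was also lost under the filter, over all probe sets and with the replicate block (adjusted p = 0.0665), and the FRD3a difference of −0.76 over all probe sets and with the replicate block (adjusted p = 0.0535). Over all probe sets the time differences in Young with Al plus Mg (FRD3a −0.59, SALI5-4A probe set 1 −1.25) and the FRD3a interaction of Mg and time in Young (−0.81) were lost. The STOP1 interaction of Mg and time in Young (−0.40) passed under quantile normalization. Near 0, SALI5-4A probe set 1 turned to 0.00128 for PI against Young with Al alone at 12 h under quantile normalization, and to 0.0145 for the interaction of Mg and genotype at 72 h under equal medians. The cause was not tested, except that testing more probe sets or fewer arrays changes the adjustment and the spread by construction. Leaving out 1 array gave, for Mg in Young at 12 h, 0.24 to 0.49 for STOP1 and −0.0416 to 0.24 for FRD3a, and for Mg in PI at 12 h −0.60 to 0.0887 for SALI5-4A probe set 1. For PI against Young it gave −0.48 to −0.39 for STOP1 and −0.80 to −0.57 for FRD3a with Al plus Mg at 12 h, −0.23 to 0.10 for FRD3a with Al plus Mg at 72 h, −0.41 to −0.30 for STOP1 with Al alone at 72 h, and −0.0597 to 0.19 for STOP1, −0.87 to −0.59 for FRD3a and −0.32 to 0.42 for SALI5-4A probe set 1 with Al alone at 12 h. For 72 h against 12 h it gave −0.0493 to 0.11 for STOP1, −0.12 to 0.22 for FRD3a and −1.10 to −0.41 for SALI5-4A probe set 1 in PI with Al plus Mg, and 0.39 to 0.64 for FRD3a in PI with Al alone. In Young it gave −0.69 to −0.50 for FRD3a and −1.51 to −1.05 for SALI5-4A probe set 1 with Al plus Mg, and 0.0426 to 0.29 for STOP1 and −0.20 to 0.62 for SALI5-4A probe set 1 with Al alone. For Mg by genotype it gave −0.40 to 0.23 for SALI5-4A probe set 1 at 72 h, and −0.64 to −0.39 for STOP1 and −0.12 to 0.18 for FRD3a at 12 h. For Mg by time in Young it gave −0.54 to −0.28 for STOP1, −0.98 to −0.68 for FRD3a and −1.87 to −1.05 for SALI5-4A probe set 1. Counts over all probe sets moved by over 1.5 times in several settings. For Mg in Young at 12 h 3117 passed without replicate 3 of Al alone, 232 without replicate 3 of Al plus Mg and 0 with the arrays alone, against 11. For Mg by genotype at 12 h 2614 passed without that replicate 3 of Al alone, against 5. For PI against Young with Al plus Mg at 12 h 1119 passed with the arrays alone, against 5099. For Mg in PI at 72 h 19821 passed over all probe sets and 8007 with the arrays alone, against 12685. Outside 72 h against 12 h in Young with Al plus Mg, same-numbered arrays did not all deviate together, with correlations between −0.43 and 0.41. In that comparison the replicate block changed no member call (FRD3a adjusted p = 0.0386, SALI5-4A probe set 1 adjusted p = 0.0418). Elsewhere it also ended the SALI5-4A probe set 3 call for PI against Young with Al plus Mg at 12 h (−1.30, adjusted p = 0.0592), which was lost as well over all probe sets and with the compared arrays alone. Dim signal limits SALI5-4A probe sets 2 and 3.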
